A study of Arabidopsis thaliana with 9 samples.

Results

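The xyloglucan endotransglucosylase/hydrolases of Arabidopsis thaliana form a family of 33 loci, XTH1 to XTH33. All 33 were taken by name, with no use of their levels, from the 28775 loci that every count file lists, and their messenger RNA was followed in roots of 3 genotypes. Col-0 is the wild type. The 35S:miR858 plants carry the microRNA miR858 behind the 35S promoter of cauliflower mosaic virus, which is active in most tissues. The 35S:rMYB83 plants express, behind the same promoter, a form of the transcription factor MYB83 that miR858 cannot target. Roots of plants aged 2 weeks, grown in long days, gave 3 libraries per genotype. No label names a nematode infection, although the series title concerns cyst nematodes. The sources used here do not give the number of plants per library or of independent transgenic lines.

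Xyloglucan is the main hemicellulose of the primary wall in Arabidopsis, a glucan chain with xylose, galactose and fucose side chains that lies on and between cellulose microfibrils. XTH enzymes cut a xyloglucan chain and join the cut end to another chain, and a few of them also, or instead, pass it to water and so shorten it. Members differ in where and when they are expressed, and several were first found as genes that respond to touch, hormones or shade. MYB83 and its close relative MYB46 switch on secondary wall genes in xylem, and miR858 cuts transcripts of several MYB factors.

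Total gene counts per library lay between 5313656 and 10648857. MYB83 stood at 0.723 to 2.17 CPM (counts scaled to library size) in Col-0, at 1.51 to 1.56 CPM in 35S:miR858 and at 98.0 to 134 CPM in 35S:rMYB83. The MIR858A locus had 120, 200 and 227 counts in the 35S:miR858 libraries and 0 in the other 6. All 11 root markers had counts in all 9 libraries, and their summed share of counts was 0.479% to 0.674% in Col-0, 0.689% to 0.816% in 35S:miR858 and 0.782% to 0.947% in 35S:rMYB83, with none of the 11 at 0. Of the 11, 4 were higher in each line (36.4%, beside 11.6% of all genes in 35S:miR858 and 6.7% in 35S:rMYB83). PYK10, a beta-glucosidase of ER bodies, held most of that share, at 4216 to 6252 CPM in Col-0, 6777 to 7801 CPM in 35S:miR858 and 7396 to 9512 CPM in 35S:rMYB83, and did not pass in 35S:miR858 (adjusted p = 0.113). The 20 green shoot markers took 0.445% of the counts in Col-0 replicate 1 and 0.761% in 35S:rMYB83 replicate 1, against 0.0741% to 0.202% in the other libraries. These 2 libraries are called green-rich here, and calls of members that change without them are given both ways. In RNA from whole roots, fewer cells of a type and less RNA per cell cannot be told apart. Whether replicates came from separate plantings is not stated, so every p-value here reflects differences among the 9 libraries that may be technical.

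None of the 33 member transcripts paired with miR858a as closely as MYB83 did. The mature miR858a of the TAIR10.1 annotation (chr1:26773695-26773715, minus strand) is shown with its seed, bases 2 to 8, in capitals. The best site in MYB83, in XTH16 and in XTH15 follows it, each read 5′ to 3′ in the transcript, with capitals where the base does not form a Watson-Crick pair. XTH16 is shown as the closest member and XTH15 as the member with the smallest p among those that rose.
miR858a: tTTCGTTGtctgttcgacctt
MYB83: CaggtAgaacagacaacgaGa
XTH16: aaggAcCaacaCacGacgaGa
XTH15: aaggAGCaacaCaTGacgaGa
A mismatch was scored 1 and a G:U pair 0.5, each doubled at miRNA positions 2 to 13. The wild-type MYB83 transcript scored 3, with 2 mismatches and 1 G:U pair. XTH16 scored 6 (3 mismatches, 2 G:U pairs) and XTH15 scored 8. The members' scores had a median of 9.5 and reached 11.5, and the median over 27440 genes was 10.5. Of these genes, 7 scored as low as MYB83 or lower, and 0.539% scored 6 or lower. A score describes letters only, and cleavage of no transcript was measured.

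Summed over the family, XTH transcripts were more abundant in 35S:miR858 than in either other genotype. The 33 members together came to 1003 ± 37.1 CPM in Col-0, to 1241 ± 59.9 CPM in 35S:miR858 and to 984 ± 37.2 CPM in 35S:rMYB83 (mean ± SD over 3 libraries, as throughout). The 35S:miR858 libraries, at 1182 to 1302 CPM, lay above all others, while Col-0 (980.2 to 1046 CPM) and 35S:rMYB83 (954.3 to 1026 CPM) overlapped. As a share of raw gene counts the family took 0.100% to 0.109% in Col-0, 0.114% to 0.122% in 35S:miR858 and 0.0916% to 0.105% in 35S:rMYB83. On this scale 35S:miR858 was highest too, but by a smaller relative margin over Col-0 than in scaled CPM. The summed level was described and not tested. The root marker share was also higher in 35S:miR858 than in Col-0, and reached its highest values in 35S:rMYB83 (0.782% to 0.947%). The part of the root marker share in the family's level was not tested.

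The make-up of the family shifted more than its sum, as the plot of levels per kilobase by library shows. In Col-0, XTH31 led on a scale of CPM per kilobase of exon (CPM/kb), with 124 ± 11.1 CPM/kb or 16.6 ± 0.921% of the family's total. XTH14, XTH19, XTH7 and XTH30 followed it. In 35S:miR858, XTH15 led with 106.5 ± 23.4 CPM/kb, XTH24 came next with 94.96 ± 51.6 CPM/kb, and XTH31 was in place 6 with 58.5 ± 25.1 CPM/kb. The spread of XTH24 covers the levels of XTH15, XTH30 and XTH31, so its place in that order is not firm. In 35S:rMYB83, XTH31 was again first at 97.7 ± 7.94 CPM/kb, followed by XTH30 at 67.8 ± 1.46 CPM/kb and XTH14 at 64.8 ± 13.2 CPM/kb. XTH7 made up 5.58% to 7.23% of the family's level in the Col-0 libraries, 0.391% to 1.40% in 35S:miR858 and 1.41% to 1.502% in 35S:rMYB83.

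**Figure D1:**
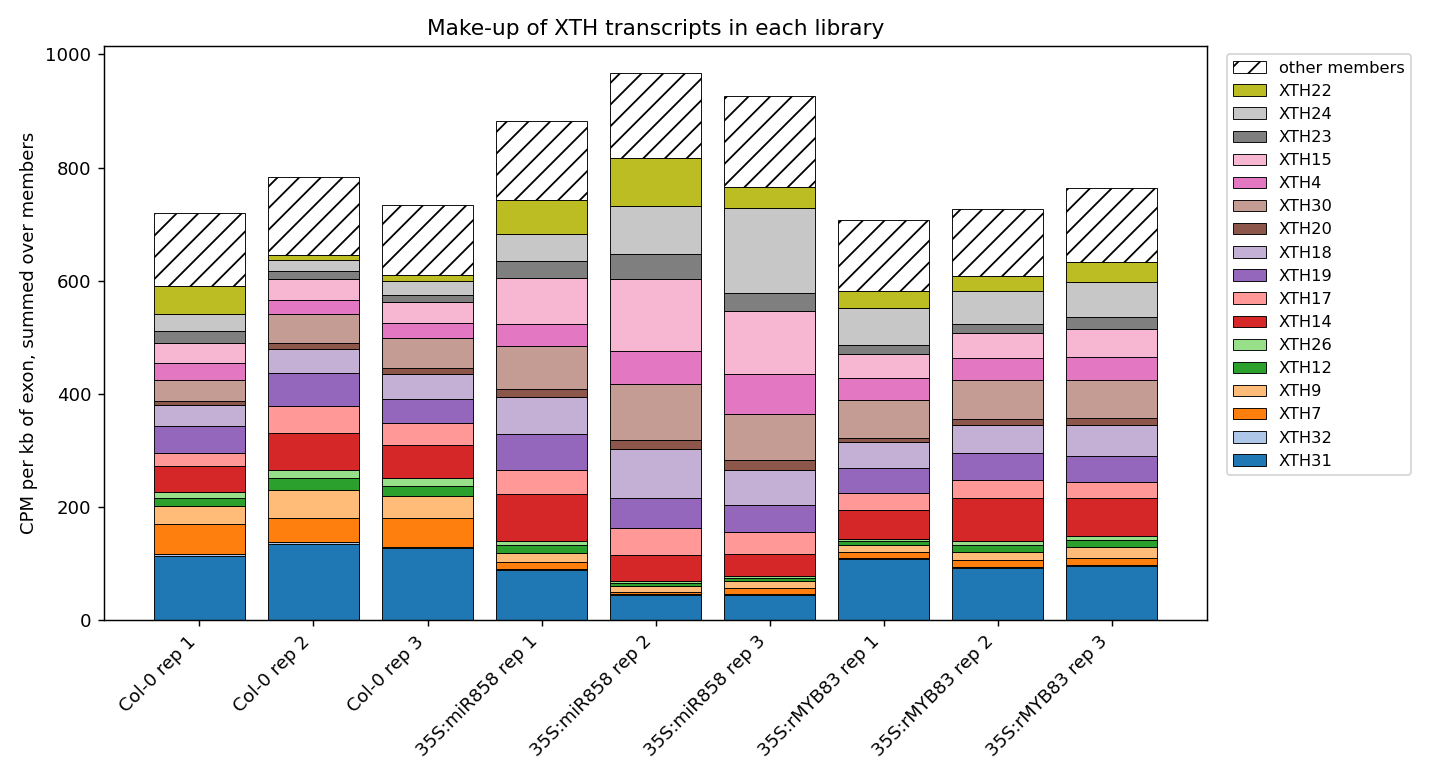
Level of chosen XTH members in each library, stacked, in CPM per kilobase of exon, with all other members summed in a hatched band. The named members were not picked by level alone: XTH27 and XTH8 are in the hatched band, while XTH32, at a lower level, is named. Each column is 1 library and its height is the family's sum. The 35S:miR858 columns are the tallest, at 881.6 to 966.8 CPM/kb, with a thinner XTH31 band and thicker XTH15 and XTH24 bands than in Col-0.

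Of the 33 members, 28 had enough counts to be tested. The other 5 were close to silent in these roots: XTH1 had no count in any library, with a floor of 3 counts per library, XTH2 had 2 counts and XTH3 had 1 count over all libraries, XTH25 had 13 counts and XTH29 had 24. XTH29 had 0.361 to 0.776 CPM in the Col-0 libraries and at most 0.128 CPM in 35S:miR858, too few counts for a test. Among the tested members, mean levels in Col-0 ran from 1.48 CPM for XTH6 to 173 CPM for XTH31.

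In 35S:miR858 against Col-0, 13 of the 28 tested members changed at an adjusted p under 0.05 (46.4%), beside 25.1% of all 19496 genes tested. Members went both ways: 7 were higher (XTH4, XTH15, XTH18, XTH20, XTH23, XTH24 and XTH30) and 6 were lower (XTH7, XTH9, XTH12, XTH26, XTH31 and XTH32), while 15 did not pass. Over all genes, 11.6% were higher and 13.5% lower. The groups did not overlap for 15 tested members, beside 40.6% of all genes. The median of the absolute log2 fold change was 0.83 over the members and 0.27 over all genes. The signed medians were 0.18 and -0.02. All 6 members that fell did so by at least 2-fold, and 4 of the 7 that rose did so by at least 2-fold. The share of all genes past 2-fold was not counted, so these counts have no background beside them. Without the 2 green-rich libraries 10 members were higher and 8 lower, 7 and 6 of them shared with the first count. In that fit calls over all genes also rose, from 4900 to 5469 (2513 higher and 2956 lower).

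In 35S:rMYB83 against Col-0, 5 of the 28 changed (17.9%), beside 16.4% of all genes, which is close to the background. XTH24 and XTH30 were higher and XTH7, XTH9 and XTH26 were lower; 23 did not pass. Over all genes 6.7% were higher and 9.73% lower. The groups did not overlap for 11 tested members, beside 34% of all genes. The comparisons of both lines with Col-0 use the same 3 Col-0 libraries, so they are not independent, and the values of each member are given side by side. Leaving out any 1 of the 3 35S:rMYB83 libraries took the count of higher members from 2 to 0. In those fits calls over all genes also fell, from 3203 to between 2142 and 2371. There the log2 fold change was 1.25 to 1.32 for XTH24 and 0.53 to 0.56 for XTH30. With Col-0 replicate 2 or replicate 3 left out 1 member was higher, with 2087 and 2097 calls over all genes.

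The lines were also compared with each other. In 35S:rMYB83 against 35S:miR858, 2 of 28 members changed (7.14%), beside 4.05% of all genes. Both, XTH15 and XTH23, were lower in 35S:rMYB83, a direction taken by 1.54% of all genes. No member was higher by edgeR's quasi-likelihood test (2.5% of all genes were), where 3 had an unadjusted p under 0.05 and DESeq2 called 1. The groups did not overlap for 11 members, beside 24.8% of all genes. The count of 2 lower members became 4 without Col-0 replicate 1. In that fit calls over all genes also rose, from 789 to 992, and lower calls from 301 to 398. The member count became 3 on leaving out 35S:miR858 replicate 1 or 35S:rMYB83 replicate 3, with 684 and 644 calls over all genes. It became 1 on leaving out Col-0 replicate 2, 35S:miR858 replicate 2 or 3, or 35S:rMYB83 replicate 1 or 2. In the fits that gave 1, calls over all genes came to 322 to 781, against 789 with all libraries.

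**Figure D2:**
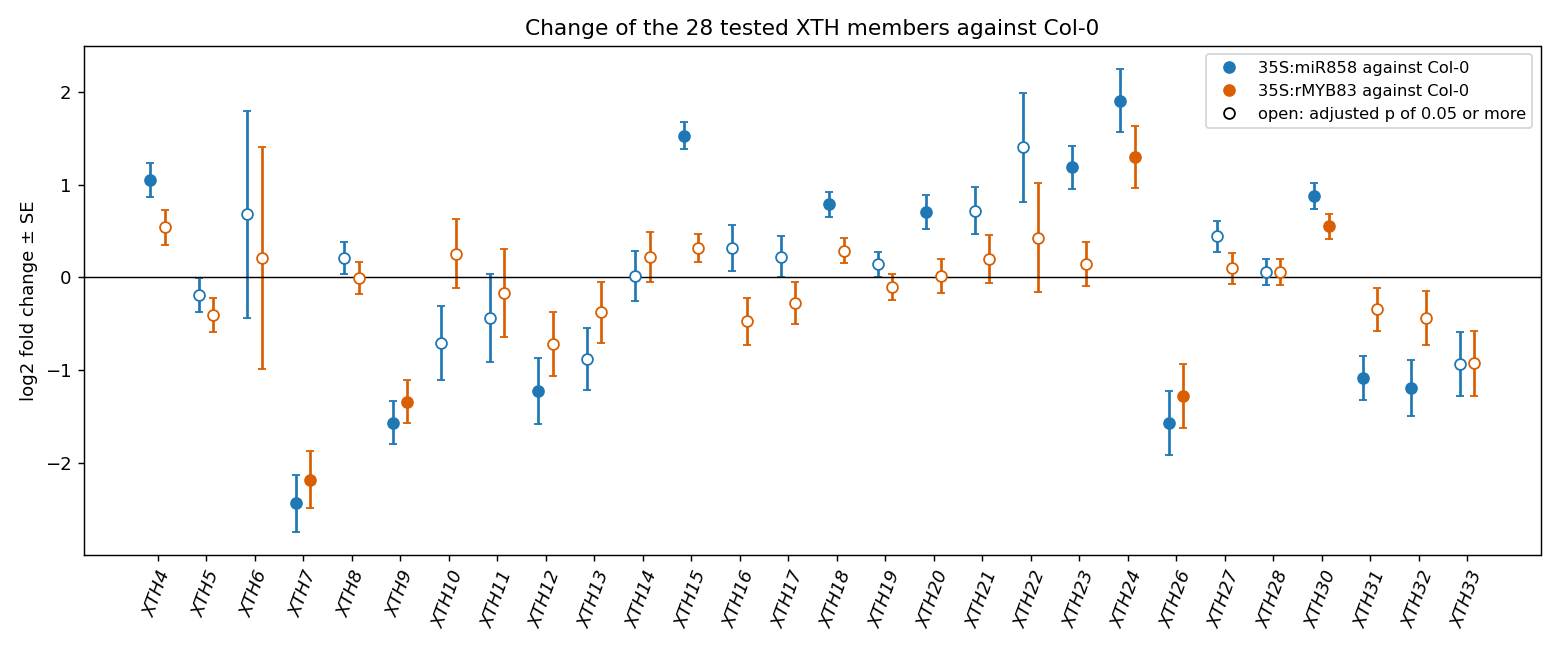
Log2 fold change against Col-0 of the 28 tested XTH members in 35S:miR858 and in 35S:rMYB83, with SE bars; filled points had an adjusted p under 0.05. XTH7 lies lowest in both lines, at -2.43 and -2.18, and XTH24 lies highest among the filled points, at 1.90 and 1.30.

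XTH7, XTH9 and XTH26 fell in each line. XTH7 (AT4G37800, chr4:17775370-17777445, minus strand) was the most reduced member. It stood at 67.0, 56.3 and 64.2 CPM in Col-0, at 15.8, 4.87 and 13.8 CPM in 35S:miR858 and at 12.9, 14.1 and 14.3 CPM in 35S:rMYB83. Every Col-0 library lay above every library of both lines, which overlapped each other. XTH7 was 5.40-fold lower in 35S:miR858 (log2 fold change -2.43, SE 0.31, adjusted p = 0.000509) and 4.53-fold lower in 35S:rMYB83 (-2.18, SE 0.31, adjusted p = 0.00155). The lines did not pass a test against each other (adjusted p = 0.731). Its call held in both comparisons whichever library was left out.

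XTH9 (AT4G03210, chr4:1415617-1417444, plus strand), which together with XTH4 takes part in secondary growth of the stem, showed the same pattern. Its levels were 48.0, 74.8 and 59.2 CPM in Col-0, 25.1, 17.3 and 19.1 CPM in 35S:miR858, and 17.4, 22.8 and 31.1 CPM in 35S:rMYB83. Both lines were below all Col-0 libraries and overlapped each other. Its log2 fold change came to -1.57 (SE 0.23, adjusted p = 0.00117) in 35S:miR858 and -1.34 (SE 0.23, adjusted p = 0.00407) in 35S:rMYB83, and both calls held under every left-out library.

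XTH26 (AT4G28850, chr4:14244290-14246037, plus strand), a root member known from root hairs and epidermis, stood at 13.7, 17.4 and 18.1 CPM in Col-0. In 35S:miR858 it had 9.48, 3.20 and 3.87 CPM, and in 35S:rMYB83 5.11, 6.73 and 8.17 CPM. Col-0 again lay above all 6 other libraries, with 35S:miR858 replicate 1 the nearest. In log2 terms the change was -1.57 (SE 0.35, adjusted p = 0.0092) in 35S:miR858 and moved to -2.20 without 35S:miR858 replicate 1. In 35S:rMYB83 it was -1.27 (SE 0.34, adjusted p = 0.0322). That call was lost without Col-0 replicate 2 or 3 or any 35S:rMYB83 library (adjusted p up to 0.0975), and without the 2 green-rich libraries (adjusted p = 0.0636).

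XTH24 and XTH30 rose in each line. XTH24 (AT4G30270, chr4:14819192-14820595, minus strand), first isolated as MERI5 from meristem tissue, stood at 37.1, 24.3 and 30.7 CPM in Col-0, at 58.8, 104 and 182 CPM in 35S:miR858 and at 80.4, 72.2 and 74.1 CPM in 35S:rMYB83. All libraries of both lines lay above Col-0, and the 35S:miR858 libraries spread over a far wider range than the others. Against Col-0 the log2 fold change was 1.90 (SE 0.34, adjusted p = 0.00311) in 35S:miR858 and 1.30 (SE 0.34, adjusted p = 0.0274) in 35S:rMYB83. The call in 35S:rMYB83 was lost without Col-0 replicate 2 or 3 or any 35S:rMYB83 library (adjusted p up to 0.0961), and without the 2 green-rich libraries (adjusted p = 0.0508).

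XTH30 (AT1G32170, chr1:11575320-11578030, plus strand), a member linked to salt tolerance, had 51.6, 70.4 and 72.8 CPM in Col-0. It had 108, 137 and 113 CPM in 35S:miR858, and 92.9, 97.0 and 94.6 CPM in 35S:rMYB83. The 3 groups did not overlap, with 35S:rMYB83 between the others. It was 1.84-fold higher in 35S:miR858 (log2 fold change 0.88, SE 0.14, adjusted p = 0.00159) and 1.46-fold higher in 35S:rMYB83 (0.55, SE 0.14, adjusted p = 0.0242), while the lines did not pass against each other (adjusted p = 0.24). Without any 1 of the 35S:rMYB83 libraries the call in that line was lost, with adjusted p from 0.0518 to 0.0635.

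**Figure D3:**
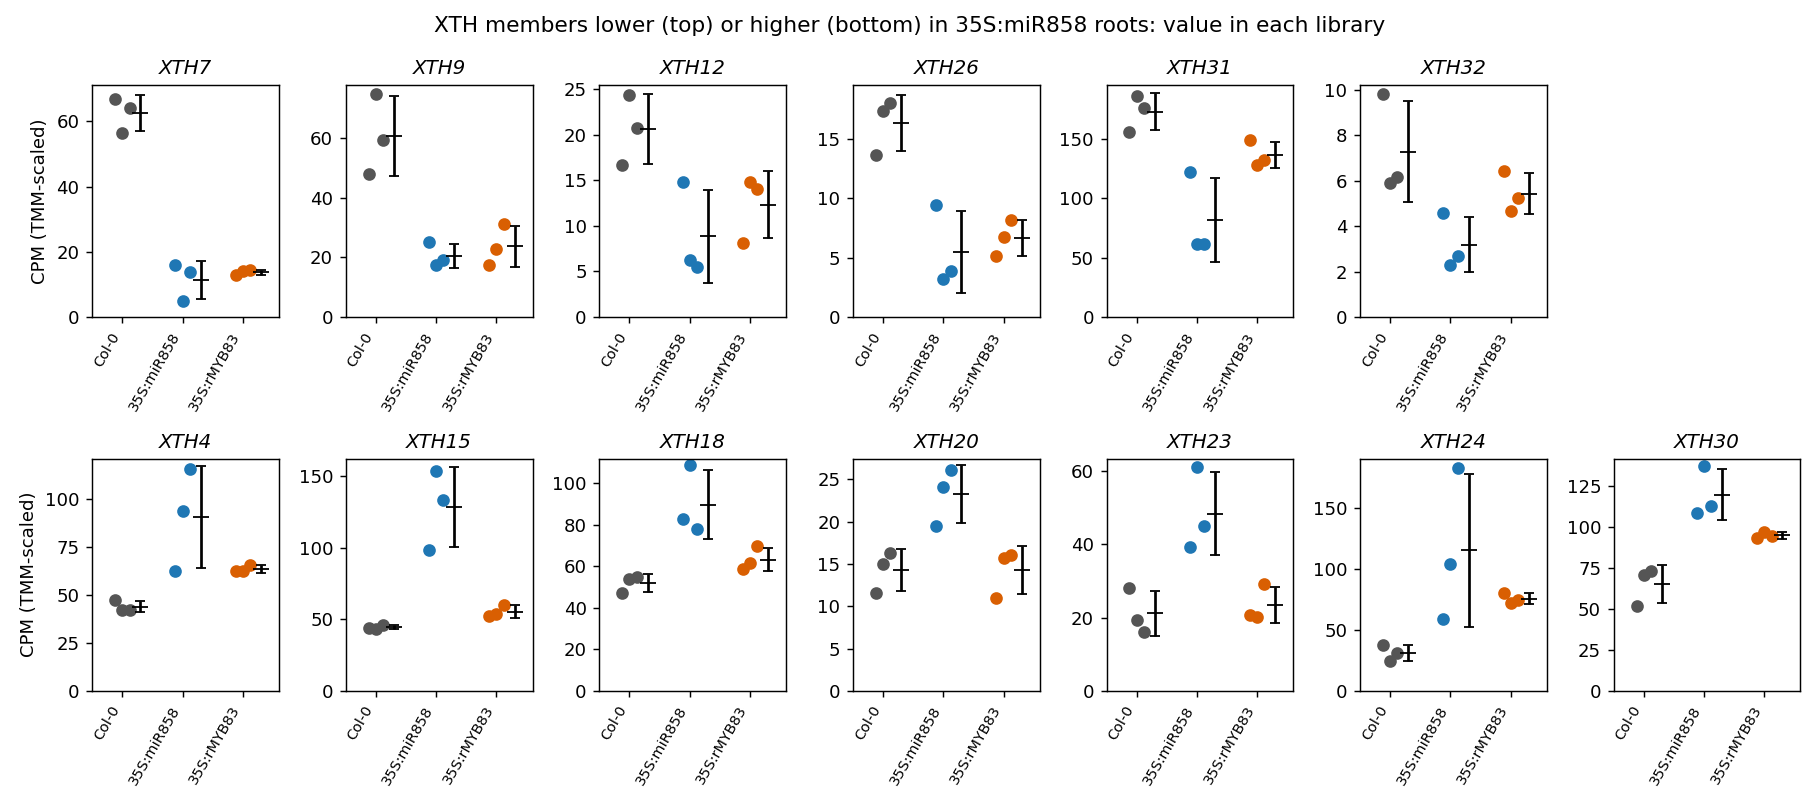
CPM of the 13 XTH members that changed in 35S:miR858, 1 panel per gene; each point is a library and the bar gives the mean ± SD of 3 libraries. XTH7, XTH9 and XTH26 are low in both lines, XTH24 and XTH30 are high in both, and XTH15 is high in 35S:miR858 (129 ± 28.2 CPM) with 35S:rMYB83 (55.4 ± 4.33 CPM) near Col-0 (44.6 ± 1.56 CPM).

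The 300 bases upstream of the members' annotated starts were searched for the secondary wall MYB-responsive element that MYB83 and MYB46 bind. Its 8 forms of 7 bases, read 5′ to 3′ on both strands, start with ACC, have adenine or thymine next, then adenine, then adenine or cytosine, and end with cytosine or thymine, and overlapping matches were counted. Of the 33 members, 16 held at least 1 form (48.5%), against 9311 of 27443 protein-coding genes (33.9%). The window of XTH5 overlaps another locus, AT5G13880. Among the 13 members that changed in 35S:miR858, 8 held one (61.5%), as did 2 of the 5 that changed in 35S:rMYB83 and 5 of the 15 tested members that changed in neither line (33.3%). The windows of XTH7, the strongest faller in 35S:rMYB83, and of XTH20, which holds the most matches, are shown from TAIR10.1 in the direction of transcription, with matches in capitals. They cover chr4:17777446-17777745 (XTH7, minus strand) and chr5:19481597-19481896 (XTH20, plus strand).
XTH7: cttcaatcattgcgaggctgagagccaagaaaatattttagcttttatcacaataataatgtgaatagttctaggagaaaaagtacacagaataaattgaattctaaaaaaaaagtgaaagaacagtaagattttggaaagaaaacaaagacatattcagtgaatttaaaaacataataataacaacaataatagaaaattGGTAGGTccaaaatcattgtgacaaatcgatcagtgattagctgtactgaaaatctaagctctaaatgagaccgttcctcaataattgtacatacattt
XTH20: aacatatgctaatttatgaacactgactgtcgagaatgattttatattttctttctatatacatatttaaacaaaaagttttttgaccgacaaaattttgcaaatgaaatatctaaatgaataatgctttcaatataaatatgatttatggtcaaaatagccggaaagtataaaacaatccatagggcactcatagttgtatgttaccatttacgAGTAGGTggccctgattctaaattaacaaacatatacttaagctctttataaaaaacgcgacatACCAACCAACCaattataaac
XTH7 held ACCTACC on the opposite strand, 99 bases before the start. XTH20 held 3 matches, at 85, 21 and 17 bases before the start, of which the last 2 overlap, and its level in 35S:rMYB83 did not pass a test against Col-0 (adjusted p = 0.971). A match is a string of letters and shows no binding, and members without one may hold it outside the window.

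XTH31 and XTH32 make up the clade whose enzymes can hydrolyse xyloglucan, and both were lower in 35S:miR858. XTH31 (AT3G44990, chr3:16446935-16448844, minus strand), linked to aluminium sensitivity of roots, had 156, 186 and 176 CPM in Col-0. It had 122, 61.3 and 61.3 CPM in 35S:miR858, and 149, 128 and 132 CPM in 35S:rMYB83. The 3 groups did not overlap, and 35S:miR858 replicate 1 lay nearest to the others. The fall in 35S:miR858 was 2.12-fold (log2 fold change -1.08, SE 0.24, adjusted p = 0.0086) and its call held under every left-out library. In 35S:rMYB83 the log2 fold change of -0.34 (SE 0.23) did not pass (adjusted p = 0.361), and neither did the difference between the lines (0.74, SE 0.24, adjusted p = 0.128). Without 35S:miR858 replicate 1 both passed, at -0.35 (adjusted p = 0.0365) and 1.14 (adjusted p = 0.00303). The difference between the lines also passed by DESeq2 (adjusted p = 0.0346).

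XTH32 (AT2G36870, chr2:15472607-15474828, minus strand) was far less abundant. It had 9.82, 5.89 and 6.15 CPM in Col-0, 4.56, 2.30 and 2.69 CPM in 35S:miR858, and 6.43, 4.65 and 5.22 CPM in 35S:rMYB83. Only 35S:miR858 was separate from both other groups. Its log2 fold change there was -1.20 (SE 0.30, adjusted p = 0.0169), and the call was lost without 35S:miR858 replicate 2 (adjusted p = 0.0661) or replicate 3 (0.0631). The comparison of 35S:rMYB83 with Col-0 did not pass (adjusted p = 0.351).

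XTH15 and XTH23 rose in 35S:miR858 and differed between the lines. XTH15 (AT4G14130, chr4:8137020-8138392, minus strand), earlier named XTR7 and known to respond to shade, stood at 43.9, 43.5 and 46.4 CPM in Col-0, at 98.2, 154 and 134 CPM in 35S:miR858 and at 52.2, 53.7 and 60.4 CPM in 35S:rMYB83. The 35S:miR858 libraries lay far above the rest, and 35S:rMYB83 lay just above Col-0. It was 2.88-fold higher in 35S:miR858 (log2 fold change 1.53, SE 0.15, adjusted p = 0.000124) and did not pass in 35S:rMYB83 (adjusted p = 0.184). The direct comparison gave a level 2.32-fold lower in 35S:rMYB83 than in 35S:miR858 (-1.21, SE 0.15, adjusted p = 0.0028), and both calls held under every left-out library. The locus AT4G14120 on the opposite strand overlaps 382 of the 1207 exon bases of XTH15, and whether counting used strand is not stated. That locus itself had 0.896 to 3.44 CPM.

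XTH23 (AT4G25810, chr4:13128394-13129927, plus strand), earlier named XTR6, had 28.01, 19.4 and 16.1 CPM in Col-0. It had 39.2, 61.1 and 44.9 CPM in 35S:miR858 and 20.8, 20.2 and 29.2 CPM in 35S:rMYB83. Col-0 and 35S:rMYB83 overlapped, and 35S:miR858 lay above both. The log2 fold change was 1.18 (SE 0.24, adjusted p = 0.0054) in 35S:miR858 against Col-0, and -1.04 (SE 0.24, adjusted p = 0.0409) in 35S:rMYB83 against 35S:miR858. The first call held under every left-out library. The second was lost without replicate 2 of Col-0, 35S:miR858 replicate 2 or 3, or 35S:rMYB83 replicate 1 or 2 (adjusted p from 0.0522 to 0.156), and with library totals as the scaling (adjusted p = 0.0627).

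Among the close relatives XTH17, XTH18, XTH19 and XTH20, known from the elongating and differentiating root, XTH18 and XTH20 rose in 35S:miR858. XTH18 (AT4G30280, chr4:14825757-14827211, minus strand) had 47.2, 53.6 and 55.0 CPM in Col-0, 82.7, 109 and 77.7 CPM in 35S:miR858, and 58.5, 61.5 and 69.5 CPM in 35S:rMYB83. The groups did not overlap, with 35S:rMYB83 in between. The rise in 35S:miR858 was 1.73-fold (log2 fold change 0.79, SE 0.13, adjusted p = 0.00244), and neither 35S:rMYB83 against Col-0 (adjusted p = 0.186) nor the lines against each other (adjusted p = 0.0732) passed. By DESeq2 the difference between the lines did pass (-0.51, adjusted p = 0.02). XTH20 (AT5G48070, chr5:19481897-19483527, plus strand) had 11.6, 15.03 and 16.3 CPM in Col-0, 19.4, 24.1 and 26.1 CPM in 35S:miR858, and 10.98, 15.7 and 16.1 CPM in 35S:rMYB83. Only 35S:miR858 stood apart, with a log2 difference from Col-0 of 0.71 (SE 0.18, adjusted p = 0.0188). That call was lost without 35S:miR858 replicate 2 (adjusted p = 0.0582) or replicate 3 (0.0705). Between the lines XTH20 did not pass (-0.69, adjusted p = 0.0741). It passed by DESeq2 (adjusted p = 0.031), with the replicate block (0.00972) and without Col-0 replicate 1 (0.0497). XTH17 (46.0 ± 16.5, 53.7 ± 4.50 and 38.0 ± 2.28 CPM in Col-0, 35S:miR858 and 35S:rMYB83) and XTH19 (65.8 ± 10.4, 72.6 ± 10.8 and 61.2 ± 3.69 CPM) did not pass in any comparison with all 9 libraries. On leaving out Col-0 replicate 1, the log2 fold change of XTH17 in 35S:rMYB83 went from -0.28 to -0.53 and passed (adjusted p = 0.0172), as it did when the green-rich libraries were left out (adjusted p = 0.0339). It also passed between the lines without Col-0 replicate 1 (adjusted p = 0.0385) and when only those groups were fitted (adjusted p = 0.0324).

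XTH12, XTH13 and XTH14 are further members described from roots. XTH12 (AT5G57530, chr5:23300321-23301689, minus strand) had 16.7, 24.4 and 20.7 CPM in Col-0, 14.8, 6.27 and 5.49 CPM in 35S:miR858, and 8.14, 14.8 and 14.1 CPM in 35S:rMYB83. Both lines lay below Col-0 and overlapped each other. In 35S:miR858 its log2 fold change was -1.22 (SE 0.35, adjusted p = 0.0302), and it moved to -1.81 without 35S:miR858 replicate 1. The call was lost without Col-0 replicate 2 or 3 or 35S:miR858 replicate 2 or 3 (adjusted p from 0.0718 to 0.102). In 35S:rMYB83 it did not pass (adjusted p = 0.196). XTH13, its neighbour on chromosome 5, stood at 9.19 ± 2.72 CPM in Col-0 and 5.01 ± 2.54 CPM in 35S:miR858 and did not pass (adjusted p = 0.0834), though it did without 35S:miR858 replicate 1 (log2 fold change -1.37, adjusted p = 0.0109) and with library totals (adjusted p = 0.0481). XTH14 stood at 65.1 ± 11.1, 65.7 ± 27.3 and 75.6 ± 15.4 CPM in the 3 genotypes, with no test passed. Over all genes, 25.1% passed in 35S:miR858 and 16.4% in 35S:rMYB83 by edgeR's test. None of 9 root hair markers passed in either line by edgeR's test or by DESeq2, with 1 at an unadjusted p under 0.05 in 35S:miR858 and 0 in 35S:rMYB83. Their summed share was 0.0466% to 0.0606% of counts in Col-0 and 0.0428% to 0.0454% in 35S:rMYB83. In 35S:miR858 it was 0.0535% in replicate 1, 0.0400% in replicate 2 and 0.0364% in replicate 3. All 35S:rMYB83 libraries and 35S:miR858 replicates 2 and 3 thus lay below every Col-0 library in this share, which was not itself tested.

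XTH4 (AT2G06850, chr2:2763449-2765743, plus strand), an expansion-related member also known as EXGT-A1 and the partner of XTH9 in stem growth, moved opposite to XTH9. It had 47.2, 42.0 and 42.3 CPM in Col-0, 62.7, 94.0 and 116 CPM in 35S:miR858, and 62.6, 62.5 and 65.8 CPM in 35S:rMYB83. All 6 libraries of the lines lay above Col-0. The rise of 2.07-fold in 35S:miR858 passed (log2 fold change 1.05, SE 0.18, adjusted p = 0.00277) and held under every left-out library. In 35S:rMYB83 the log2 fold change of 0.54 (SE 0.18) did not pass (adjusted p = 0.0762). It passed there by DESeq2 (adjusted p = 0.0413), when only those groups were fitted (0.0105), and without 35S:miR858 replicate 1 (0.0122) or replicate 3 (0.0383). XTH27, which acts in leaf vein tracheary elements, stood at 56.3 ± 10.8, 76.4 ± 11.9 and 60.4 ± 9.08 CPM and did not pass (log2 fold change 0.44, adjusted p = 0.081 in 35S:miR858). It passed there without the green-rich libraries (0.60, adjusted p = 0.0184), with the replicate block (adjusted p = 0.0452), and on leaving out Col-0 replicate 1 (adjusted p = 0.0304). Of 8 xylem markers none passed in 35S:miR858 by edgeR's test or by DESeq2, with 2 at an unadjusted p under 0.05. By edgeR's test 25.1% of all genes passed there. In 35S:rMYB83 1 xylem marker passed (12.5%, beside 16.4% of all genes), which was lower.

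XTH22, known as TCH4 and one of the classic touch-induced genes of Arabidopsis, varied widely between the Col-0 libraries. It had 77.8, 14.04 and 14.8 CPM in Col-0, 94.95, 133 and 57.0 CPM in 35S:miR858, and 47.1, 42.0 and 55.6 CPM in 35S:rMYB83. Col-0 replicate 1 stood far above the other Col-0 libraries and inside the range of 35S:miR858. Log2 fold changes of 1.40 (SE 0.59, adjusted p = 0.111) in 35S:miR858 and 0.43 (SE 0.59, adjusted p = 0.676) in 35S:rMYB83 did not pass. Without Col-0 replicate 1 they were 2.72 (adjusted p = 0.000483) and 1.74 (adjusted p = 0.00601), and both passed. Col-0 replicate 1 is also 1 of the 2 green-rich libraries, without which the values were 2.73 (adjusted p = 0.00055) and 1.78 (adjusted p = 0.00978).

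Other touch-induced genes were read beside it. The calmodulin genes CAM2, CML24 and CML12, the zinc finger genes ZAT10 and ZAT12 and WRKY40 together took 0.0324% of counts in Col-0 replicate 1, against 0.0179% and 0.0201% in the other Col-0 libraries. They took 0.0602%, 0.0705% and 0.0362% in 35S:miR858 and 0.0383%, 0.0316% and 0.0343% in 35S:rMYB83. In this sum, as in XTH22, Col-0 replicate 1 was the highest Col-0 library and 35S:miR858 replicate 3 the lowest of its group. CAM2 did not follow the sum, since Col-0 replicate 1 was its lowest Col-0 library (48.1 CPM, against 71.8 and 56.4 CPM). Of the 6 genes 4 rose in 35S:miR858 (66.7%, beside 11.6% of all genes), namely CML12 (log2 fold change 2.095, adjusted p = 0.0012), ZAT10 (1.88, adjusted p = 0.00624), ZAT12 (1.16, adjusted p = 0.0221) and WRKY40 (2.48, adjusted p = 0.0181). CML12 rose in 35S:rMYB83 (1.06, adjusted p = 0.0435), where 6.7% of all genes were higher. Without the green-rich libraries ZAT10 (1.41, adjusted p = 0.0236) and WRKY40 (2.75, adjusted p = 0.0293) passed there too, and CML24 passed in 35S:miR858 (1.05, adjusted p = 0.0193). Without Col-0 replicate 1 alone ZAT12 also passed in 35S:rMYB83 (adjusted p = 0.0302). The calls of ZAT12, WRKY40 and, in 35S:rMYB83, CML12 were each lost on leaving out single libraries, with adjusted p up to 0.0795, 0.069 and 0.159. None of the 6 passed between the lines by edgeR's test, where 3 had an unadjusted p under 0.05 and DESeq2 called 1. The part of these genes' levels in the XTH22 values was not tested.

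**Figure D4:**
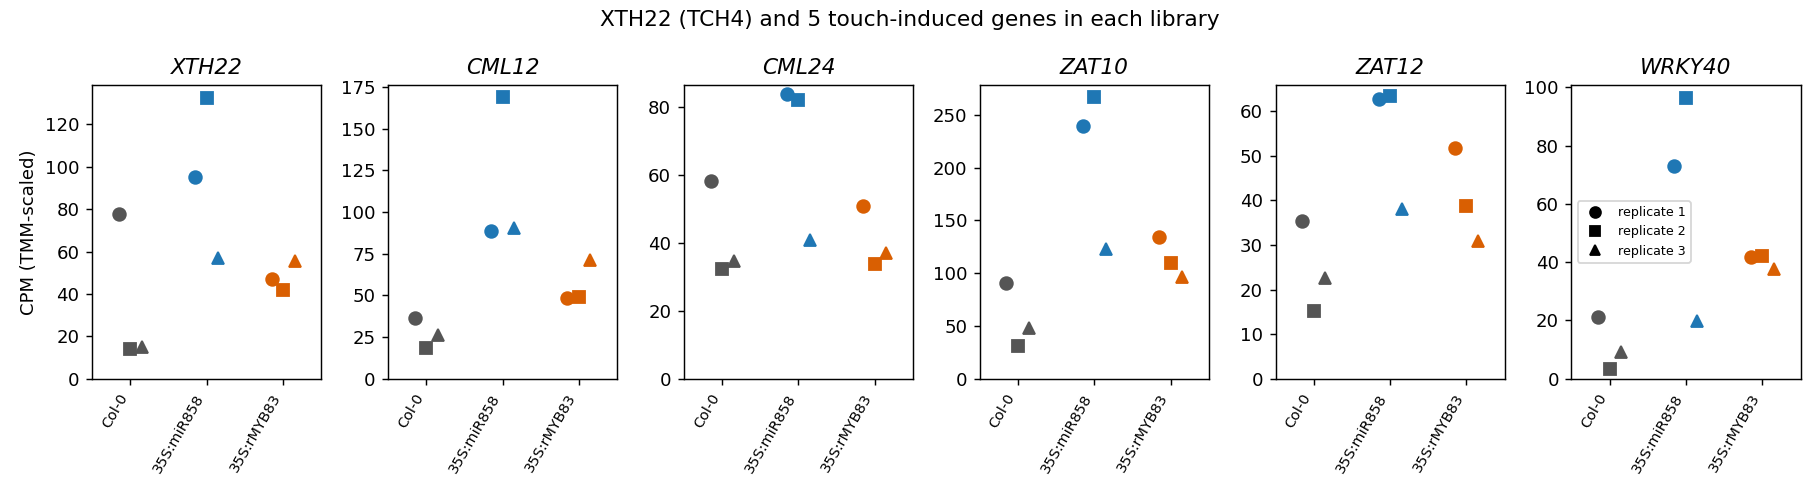
CPM of XTH22 and of 5 touch-induced genes in each library, with the marker shape giving the replicate number. CAM2, for which replicate 1 was the lowest Col-0 library, is not drawn. In Col-0, replicate 1 is the highest library for XTH22 (77.8 CPM, against 14.04 and 14.8 CPM).

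The remaining tested members did not pass in any comparison with all 9 libraries, but several calls turned on 1 or 2 libraries. The plasma membrane member XTH33 stood at 6.98 ± 1.42 CPM in Col-0 and at 3.64 ± 0.377 and 3.56 ± 2.14 CPM in 35S:miR858 and 35S:rMYB83 (adjusted p = 0.0761 and 0.105). XTH21, which acts in primary root growth, stood at 12.4 ± 2.90, 20.4 ± 6.93 and 14.3 ± 2.09 CPM (adjusted p = 0.0652 in 35S:miR858). Both passed in 35S:miR858 without the green-rich libraries, XTH33 at a log2 fold change of -1.09 (adjusted p = 0.028) and XTH21 at 0.94 (adjusted p = 0.0317). XTH33 also passed there with library totals (adjusted p = 0.0454), when only those groups were fitted (0.0214) and without 35S:rMYB83 replicate 3 (0.0143), a library whose removal gave a call in 35S:rMYB83 too (-1.57, adjusted p = 0.00892). XTH21 also passed by DESeq2 (adjusted p = 0.0428), and on leaving out 35S:miR858 replicate 1 (0.0145) or Col-0 replicate 1 (0.0318). XTH16, the member that paired best with miR858a, stood at 15.2 ± 4.44, 19.0 ± 0.432 and 10.8 ± 3.88 CPM. Without 35S:rMYB83 replicate 3 it passed in that line (log2 fold change -0.83, adjusted p = 0.0499) and between the lines (-1.14, adjusted p = 0.034). XTH28, known from stamen growth, stood at 21.7 ± 1.89, 22.6 ± 4.01 and 22.6 ± 2.12 CPM. XTH8, at 37.5 ± 10.8, 43.4 ± 1.60 and 37.2 ± 0.768 CPM, passed in 35S:miR858 without Col-0 replicate 2 (log2 fold change 0.47, adjusted p = 0.0188). XTH5 stood at 13.4 ± 1.12, 11.8 ± 1.84 and 9.94 ± 2.27 CPM. XTH6, XTH10 and XTH11 had means between 1.22 and 2.45 CPM in every genotype, and XTH10 passed in 35S:miR858 without the green-rich libraries (-0.97, adjusted p = 0.0476). Of the 15 members called in neither line, 5 had an unadjusted p under 0.05 in 35S:miR858 and 1 in 35S:rMYB83.

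Neighbouring and closely related members did not all receive the same call. Coding sequences shared 66.7% to 92.2% of bases with their closest member (median 74.0%), and 6 members reached 85% or more. XTH17 and XTH18 shared 92.2% of coding bases, and of these XTH18 rose in 35S:miR858 while XTH17 did not pass. The longest run of identical coding bases between a member and its closest member was 68. Other pairs of members, exon bases outside the coding sequence and other genes were not compared. The read length is not stated, so whether all reads can be placed is not known. The deposited files list non-unique alignments apart from the genes, so the levels of such close pairs are uncertain. Of the 33 members 11 lay within 10 kb of another. XTH24, XTH18 and XTH19 are neighbours on chromosome 4, of which the first 2 rose in 35S:miR858. XTH23 and XTH14, also neighbours on chromosome 4, had a riser and a member with almost no difference in mean. In number order, the 8 tested members of XTH1 to XTH11 held 1 that rose and 2 that fell in 35S:miR858, the 14 of XTH12 to XTH26 held 5 and 2, and the 6 of XTH27 to XTH33 held 1 and 2.

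The genes that build xyloglucan were read next to the family that remodels it. Of 16 synthesis genes, all tested, 6 changed in 35S:miR858 (37.5%, beside 25.1% of all genes), 4 higher and 2 lower. XLT2, a galactosyltransferase, fell most clearly: it had 38.2, 49.6 and 38.7 CPM in Col-0, 15.49, 15.9 and 12.5 CPM in 35S:miR858, and 20.4, 22.6 and 14.3 CPM in 35S:rMYB83. Both lines lay below Col-0 and overlapped each other. The log2 fold change was -1.53 (SE 0.18, adjusted p = 0.000377) in 35S:miR858 and -1.15 (SE 0.18, adjusted p = 0.00268) in 35S:rMYB83. CSLC12, a glucan backbone synthase, fell in 35S:miR858 from 24.0 ± 4.66 to 8.89 ± 2.95 CPM (-1.44, SE 0.23, adjusted p = 0.00163).

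Another backbone synthase, CSLC4, rose from 55.1 ± 2.73 to 97.7 ± 28.6 CPM in 35S:miR858 (log2 fold change 0.82, SE 0.19, adjusted p = 0.011). The xylosyltransferase XXT1 rose from 27.9 ± 8.30 to 68.8 ± 26.3 CPM (1.29, SE 0.27, adjusted p = 0.00728). XXT5, which works with it (0.31, adjusted p = 0.0323), and the fucosyltransferase FUT1 (0.34, adjusted p = 0.0158) also rose. The XXT5 call was lost without any 1 of the Col-0 libraries or 35S:miR858 replicate 1 or 2, with adjusted p up to 0.112, and without the green-rich libraries (0.0562). With library totals as the scaling, which moved the median of all genes to -0.16, XXT5 and FUT1 no longer passed (adjusted p = 0.195 and 0.123), and the split over the list was 2 higher and 4 lower. Without the green-rich libraries the backbone synthase CSLC6 passed as lower (-0.30, adjusted p = 0.0339).

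In 35S:rMYB83, XLT2 was the 1 synthesis gene called (6.25%, beside 16.4% of all genes). CSLC12, at 14.9 ± 1.23 CPM, lay below all Col-0 libraries but did not pass (log2 fold change -0.69, SE 0.22, adjusted p = 0.0616). It passed by DESeq2 (adjusted p = 0.0444), with library totals (0.0297) and when only those groups were fitted (0.0281). Leaving out Col-0 replicate 1 (0.0252) or 35S:miR858 replicate 1 (0.0232) or 3 (0.0356) also gave a call. No synthesis gene was higher in 35S:rMYB83 by edgeR's test or DESeq2, with 1 at an unadjusted p under 0.05. None differed between the lines by edgeR's test, where 6 had an unadjusted p under 0.05 and DESeq2 called 1. XXT1 had the smallest p of the list between the lines (log2 fold change -1.04, SE 0.27, adjusted p = 0.0694). It was the gene that DESeq2 called (adjusted p = 0.00483). By edgeR's test XXT1 passed there without Col-0 replicate 1 (adjusted p = 0.0387) or 35S:miR858 replicate 3 (0.0257). The list's median log2 fold change was 0.01 in 35S:miR858 and -0.04 in 35S:rMYB83, beside -0.02 and 0.01 over all genes.

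The 3 enzymes that trim xyloglucan side chains all rose in 35S:miR858, beside 11.6% of all genes. The β-galactosidase BGAL10 had 25.3, 24.7 and 24.9 CPM in Col-0, 50.5, 61.2 and 58.8 CPM in 35S:miR858, and 36.7, 36.0 and 43.6 CPM in 35S:rMYB83. The 3 groups did not overlap. BGAL10 rose in 35S:miR858 (log2 fold change 1.18, SE 0.11, adjusted p = 9.14e-05) and in 35S:rMYB83 (0.63, SE 0.11, adjusted p = 0.00396). It was lower in 35S:rMYB83 than in 35S:miR858 (-0.55, SE 0.11, adjusted p = 0.0205), a call lost without 35S:miR858 replicate 2 or 3 or 35S:rMYB83 replicate 1 or 2 (adjusted p up to 0.0967) and without the green-rich libraries (0.0708). The α-fucosidase AXY8 rose in 35S:miR858 from 81.9 ± 12.3 to 128 ± 10.6 CPM (0.65, SE 0.14, adjusted p = 0.00799). AXY8 did not pass in 35S:rMYB83 against Col-0 (0.12, adjusted p = 0.631) or between the lines (-0.53, adjusted p = 0.0693). Between the lines it passed by DESeq2 (adjusted p = 0.0126), with library totals (0.0389), with the replicate block (0.0185) and without Col-0 replicate 1 (0.033). The α-xylosidase XYL1 rose in 35S:miR858 from 180.0 ± 26.2 to 254 ± 23.8 CPM (0.50, SE 0.12, adjusted p = 0.0124). That call was lost without 35S:miR858 replicate 1 (adjusted p = 0.0528) and with library totals (0.0749). In 35S:rMYB83, at 235 ± 14.7 CPM, XYL1 just missed the threshold (0.39, SE 0.12, adjusted p = 0.0506). It passed there by DESeq2 (adjusted p = 0.0156), with RLE scaling (0.0461), with the replicate block (0.0473), and on leaving out the green-rich libraries (0.0132) or Col-0 replicate 1 (0.0106).

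**Figure D5:**
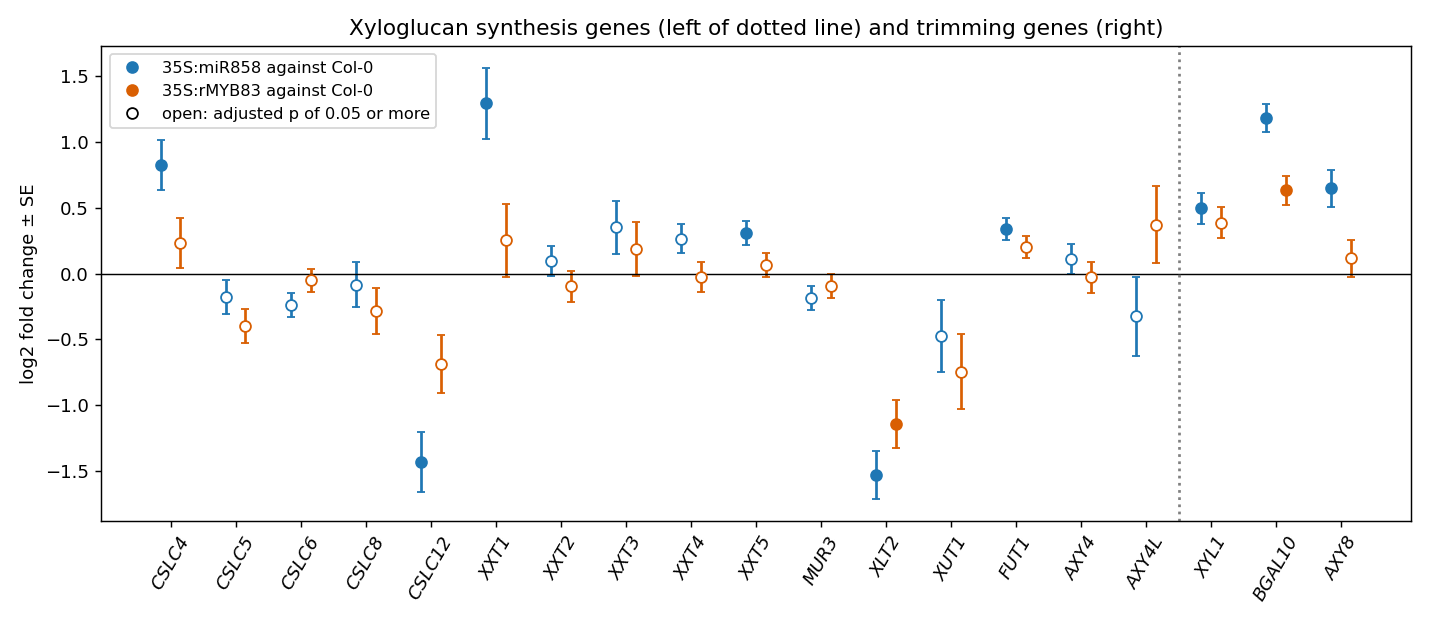
Log2 fold change against Col-0 of 16 xyloglucan synthesis genes and 3 side chain trimming genes in both lines, with SE bars; filled points had an adjusted p under 0.05. XLT2 lies lowest in both lines at -1.53 and -1.15, and XXT1 and BGAL10 lie highest in 35S:miR858 at 1.29 and 1.18.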

How the data were processed

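Messenger RNA was sequenced from roots of 3 genotypes with 3 libraries each. The authors deposited whole-number HTSeq counts per gene, 1 file per library, made with FastQC, Trimmomatic, TopHat2 2.0.14 and HTSeq on TAIR10, per the submitters' processing notes. Counting strand and settings are not given there. The summary lines were left out of library sizes; reads outside genes made up 3.62% to 5.96% of assigned, ambiguous and outside reads together. Members of the family were taken by name and not by level. Earlier results of these data were known when the family and the gene lists were chosen. Names, coordinates and sequences came from TAIR10.1, whose loci matched 28009 of the 28775. Upstream windows of all 33 members were searched, and only those shown are printed here.

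The tests used edgeR 4.0.16 (R 4.3.3), with filterByExpr by genotype, TMM scaling (factors 0.93 to 1.117) and the quasi-likelihood F test in 1 fit of 9 libraries, with Benjamini-Hochberg adjustment over 19496 genes. The SE is the log2 fold change over the square root of F. CPM uses TMM-scaled library sizes. The procedure was tested on simulated data. Libraries of 1 genotype differed by more than counting noise (chi-square per degree of freedom 6.75 to 24.8). Floors cover counting error only. Every member was eligible to be named, with values in each library for those that passed; of the other lists, members that passed, or the one with the smallest p. Alternatives were DESeq2 1.42.0, other scalings, no filter, 2 groups only, a replicate block, and leaving out each library, the green-rich ones or rRNA loci.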

Additional observations from a re-analysis of the deposited data

How the results depend on the processing

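No fold change of a single gene that passed at least once changed sign under any alternative, while the split of the synthesis list in 35S:miR858 turned with library totals. Of 71 results for single genes and comparisons that passed at least once, leaving out 1 library left the outcome of the test as it was in 552 cases, ended a call in 49 and made one in 38; the other alternatives left it in 516, ended a call in 11 and made one in 41. Leave-one-out counts of members ran from 6 to 10 higher and 4 to 7 lower in 35S:miR858, from 0 to 3 higher and 2 to 4 lower in 35S:rMYB83, and from 0 to 1 higher and 1 to 4 lower between the lines. For synthesis genes they ran from 1 to 4 lower in 35S:rMYB83, and between the lines from 0 to 1 higher and 0 to 2 lower. With library totals, synthesis genes in 35S:miR858 were 2 higher and 4 lower (4 and 2 before), 3 were lower in 35S:rMYB83 (1 before) and 1 member was lower between the lines (2 before); over all genes the split became 1355 higher and 4148 lower in 35S:miR858 (2271 and 2629 before) and 842 and 2771 in 35S:rMYB83 (1306 and 1897 before). DESeq2 gave 1 member higher, 4 members lower and 1 synthesis gene lower between the lines, 2 synthesis genes lower in 35S:rMYB83, and 1268 calls against 789 between the lines. Fitting only the 2 groups, and the replicate block, each gave 2 synthesis genes lower in 35S:rMYB83. Deviations of same-numbered libraries correlated at -0.202 to 0.552, highest between the green-rich replicate 1 libraries of Col-0 and 35S:rMYB83. Whether same-numbered libraries were paired is not stated, and these values cannot settle it. The replicate block took all calls from 4900 to 5002, 3203 to 3315 and 789 to 924. Under it XTH23 no longer passed between the lines (adjusted p = 0.0609). Nor did CML12 in 35S:rMYB83 (0.0685, and 0.0653 with library totals). Low counts limit XTH1, XTH2, XTH3, XTH25 and XTH29, and wide spread limits XTH22.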
